A study of Homo sapiens with 10 samples.

Results

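The nuclear pore and nuclear transport genes were followed over 10 arrays as a set of 44 human genes, 25 coding for parts of the nuclear pore complex and 19 for the soluble carriers and the Ran cycle that move cargo through it. They were chosen by name, as every probe set whose single platform gene symbol was one of the 44, and all 44 genes were found, with 104 of the 22215 probe sets on the array. Of these, 77 probe sets of 40 genes reached a value of at least 7.3 on at least 2 arrays and were tested among the 10176 probe sets that did. The 27 probe sets left out had values of 2.47 to 7.46 and included all those of NUP160, POM121, NUP210 and IPO8.

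The RNA came from MDA-MB-435 cells, a line labelled as human melanoma, and was hybridised to Affymetrix hgu133a arrays, with 2 arrays, given as biological duplicates, in each of 5 groups. The groups were cells stably transduced with ITGB4 (the integrin beta 4 subunit), untreated cells, and cells kept with hepatocyte growth factor (HGF, the ligand of the receptor MET) for 1, 6 or 24 h. The descriptions of the transduced samples also hold the word Mock, and the labels name neither a mock-transduced nor a vehicle-treated group, so that transduction and ITGB4 cannot be told apart. A single untreated group stands beside all times, so time in culture and time with HGF cannot be told apart either. Values are on the log2 scale after RMA (background correction, quantile normalisation and summary per probe set), so a difference of 1 is a 2-fold change. Of 18 melanocyte markers on the array 15 were kept, with a median level of 10.92, against 3 of 14 epithelial markers (median 7.61) and 3 of 10 fibroblast markers (median 7.75). The array medians over all probe sets lay between 6.81 and 6.88.

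The nuclear pore complex is the channel through the nuclear envelope. Its scaffold is made of inner and outer rings, its central channel is lined by nucleoporins rich in phenylalanine-glycine repeats, and filaments reach into the cytoplasm on one face while a basket hangs into the nucleus on the other. Importins bind cargo in the cytoplasm and exportins bind it in the nucleus. The small GTPase RAN, loaded with GTP in the nucleus and stripped of it in the cytoplasm, sets the direction of both.

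After 1 h with HGF, 4 member genes had lower RNA than in untreated cells and none had higher RNA. These were TPR, which builds the nuclear basket, RANBP2, the giant nucleoporin of the cytoplasmic filaments, IPO7, an importin that carries ribosomal proteins and histone H1, and TNPO1 (transportin), which imports RNA-binding proteins. The count of 4 of 40 genes (10%) stood beside 6.45% of all 6390 genes with a kept probe set called lower in this comparison, and 0 of 40 beside 0.814% called higher. The median difference over the 40 members was -0.05, beside 0.07 over all genes, with each gene represented by the brightest of its kept probe sets.

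TPR fell furthest. Its probe set 201730_s_at read 7.51 and 8.06 on the HGF 1 h arrays, against 9.35 and 9.31 on the untreated arrays. Both treated arrays lay below both untreated arrays and also below the ITGB4 arrays (9.77 and 8.95), the 6 h arrays (9.28 and 9.18) and the 24 h arrays (9.16 and 8.60). The log2 difference at 1 h was -1.55 (SE 0.26, n = 2 each, limma adjusted p = 0.0193), a 2.93-fold lower level, and the other kept probe set, 201731_s_at, gave -1.22 (SE 0.26, adjusted p = 0.0271). RANBP2 followed with 201713_s_at at 5.98 and 5.79 in HGF 1 h cells, against 6.81 and 6.98 in untreated cells, a difference of -1.01 (SE 0.26, adjusted p = 0.0449). The 1 h mean of that probe set was under 7.3, where low signal can compress a difference, and the second kept probe set of RANBP2, 201711_x_at, gave -0.65 (adjusted p = 0.128). Its type (x_at) can cross-hybridise with related genes, and RANBP2 has near-identical relatives in the RGPD family.

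All 4 probe sets of IPO7 lay below untreated cells on both 1 h arrays, and 3 passed the test. Of these 200994_at read 8.29 and 8.32 in HGF 1 h cells, against 9.02 and 9.11 in untreated cells, a difference of -0.76 (SE 0.12, adjusted p = 0.0122). For 200993_at the difference was -0.68 (adjusted p = 0.0271), for 200995_at -0.69 (adjusted p = 0.0330) and for 200992_at -0.48 (adjusted p = 0.0669). TNPO1 behaved alike over its 5 kept probe sets, which gave differences of -0.86 to -0.52. The calls were made for 221829_s_at, at 9.75 and 10.12 in HGF 1 h cells against 10.61 and 10.73 in untreated cells (difference -0.73, SE 0.14, adjusted p = 0.0237), and for 212635_at (-0.86, SE 0.21, adjusted p = 0.0422).

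Of the 4 exportins, CSE1L, XPO1 and XPOT also read lower without passing the test, and XPO7 gave 0.15 and -0.01 on its 2 probe sets. CSE1L, which returns importin alpha to the cytoplasm, gave differences of -0.87, -0.69 and -0.68 over 3 probe sets (adjusted p = 0.0671 to 0.0961). XPO1 (CRM1), the exporter of proteins with a leucine-rich signal, read 9.15 and 9.69 in HGF 1 h cells, against 10.00 and 10.18 in untreated cells (difference -0.67, adjusted p = 0.121). XPOT, the tRNA exporter, read 9.55 and 9.15 in HGF 1 h cells, against 10.18 and 9.85 in untreated cells (difference -0.67, adjusted p = 0.0713). RAE1, which works with NUP98 in mRNA export, lay above untreated cells on both probe sets, by 0.39 and 0.40, and did not pass either (adjusted p = 0.183 and 0.126). Over the 77 probe sets both 1 h arrays lay below both untreated arrays in 33 and above them in 13, beside 25.9% and 34.0% of all probe sets, and 8 were called lower and 0 higher, beside 5.09% and 0.580%.

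These calls rested on few arrays. RANBP2 201713_s_at was kept through the 6 h arrays and 1 ITGB4 array. With a filter over the 8 arrays other than HGF 6 h the other 3 genes were called, beside 6.45% of all genes. Without either untreated array, or without HGF 1 h replicate 1, limma called 0 of all probe sets and so 0 members lower. Without either ITGB4 array, which enters this comparison only through the shared estimate of spread, more members and a larger share of all genes were called lower. With 2 arrays against 2 an exact two-sided permutation test cannot give a p below 0.333, p-values here measure only the spread between these cultures, and in bulk RNA a lower share of cells with a transcript and less of it per cell cannot be told apart.

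**Figure D1:**
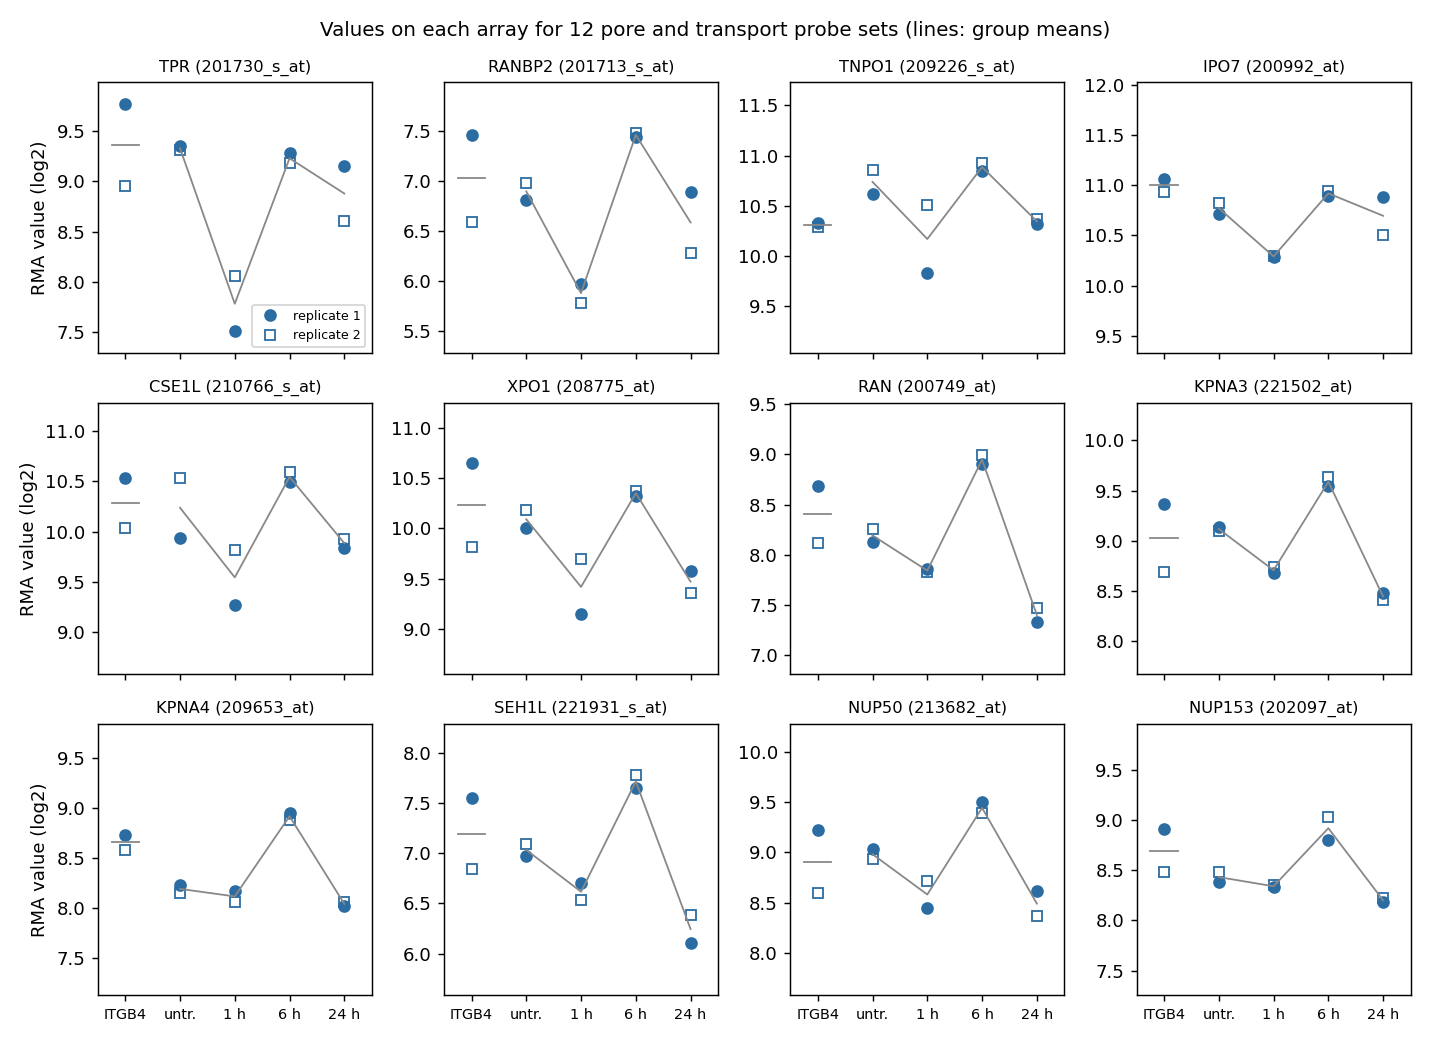
RMA values (log2, vertical axis) of 12 pore and transport genes, each on the brightest of its probe sets called at 6 h against 1 h, in cells with ITGB4, untreated cells and cells after 1, 6 and 24 h with HGF. Filled circles are replicate 1 and open squares replicate 2, lines are group means; TPR at 201730_s_at drops to 7.51 and 8.06 at 1 h, and KPNA4 stands at 8.95 and 8.88 at 6 h, above every untreated, 1 h and 24 h array.

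After 6 h with HGF 6 member genes had higher RNA than in untreated cells and none had lower RNA. Of these, 5 were transport genes, namely RAN itself, the importin alpha adaptors KPNA1, KPNA3 and KPNA4, which recognise the classical nuclear localisation signal, and KPNB1, the importin beta that carries adaptor and cargo through the channel. The other was NUP98, a mobile nucleoporin of the channel. The share was 15% of the 40 members (27.8% of the 18 transport genes and 4.5% of the 22 pore genes), beside 4.73% of all genes called higher, and 0 of 40 were called lower, beside 2.97%. A gene counts on any kept probe set, so genes with more probe sets can be called more easily. The 18 transport genes had 47, the 22 pore genes 30 and all 6390 genes 9098. By probe set 5 of 47 and 1 of 30 were called higher, beside 350 of 9098. The median difference over the members was 0.16, beside 0.01 over all genes.

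KPNA4 had the smallest adjusted p. Its 1 kept probe set, 209653_at, read 8.95 and 8.88 in HGF 6 h cells, against 8.23 and 8.15 in untreated cells, and the groups did not overlap (difference 0.72, SE 0.12, n = 2 each, adjusted p = 0.00867). KPNA3 read 8.71 and 8.54 in HGF 6 h cells, against 8.00 and 7.94 in untreated cells, with 221503_s_at (difference 0.65, SE 0.14, adjusted p = 0.0275), and its second probe set 221502_at gave 0.47 (adjusted p = 0.148). KPNA1 read 9.19 and 9.39 in HGF 6 h cells, against 8.60 and 8.61 in untreated cells, with 202055_at (difference 0.69, SE 0.16, adjusted p = 0.0304). Its 4 other kept probe sets lay 0.12 to 0.60 above untreated cells and did not pass. The importin alpha group thus had 3 of 5 genes called, and KPNA2, the importin alpha of dividing cells, gave 0.39 and 0.43 on 2 probe sets (adjusted p = 0.388 and 0.243).

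RAN stood at 8.90 and 8.99 in HGF 6 h cells, against 8.13 and 8.25 in untreated cells, with 200749_at. The difference was 0.75 (SE 0.17, adjusted p = 0.0269), while the other probe set of RAN, 200750_s_at, read 11.84 and 12.04 against 11.52 and 11.51 in untreated cells (0.42, adjusted p = 0.176). The partners of RAN, RANBP1 and RANGAP1, which help it hydrolyse GTP, lay above untreated cells on both 6 h arrays in all 4 of their kept probe sets, by 0.28 to 0.36, and did not pass the test. KPNB1 was called on 1 of 6 kept probe sets. That one, 208975_s_at, read 9.17 and 9.19 in HGF 6 h cells, against 8.67 and 8.69 in untreated cells (difference 0.50, SE 0.12, adjusted p = 0.0345), and the others gave 0.02 to 0.22.

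NUP98 was likewise called on 1 of 3 kept probe sets. With 210793_s_at it read 8.49 and 8.38 in HGF 6 h cells, against 6.93 and 6.39 in untreated cells, a difference of 1.78 (SE 0.41, adjusted p = 0.0336). This probe set reached 7.3 on the 6 h arrays alone, so it could enter the tests only by being high there and its p-value carries no weight. With the filter over the other 8 arrays 5 of 39 members were called, beside 4.36% of all genes. The other probe sets of NUP98 gave 0.02 and 0.24 and overlapped. Of the remaining pore genes, SEH1L, a small protein of the outer ring, came closest, at 7.65 and 7.78 in HGF 6 h cells, against 6.97 and 7.09 in untreated cells (difference 0.68, SE 0.20, adjusted p = 0.0659). SEH1L would not have been kept without the 6 h arrays either.

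Over the 77 probe sets both 6 h arrays lay above both untreated arrays in 42 and below them in 4, beside 32.5% and 27.8% of all probe sets, and 6 were called higher and 0 lower, beside 3.88% and 2.33%. The 6 member genes called higher lost their calls without either untreated array and without either 6 h array, where the share of all genes called fell as well. Without either ITGB4 array more members and a larger share of all genes were called higher. When the kept probe sets of a gene were averaged before the test, 3 genes (KPNA3, KPNA4 and RAN) remained of the 6, beside 4.96% of all genes.

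**Figure D2:**
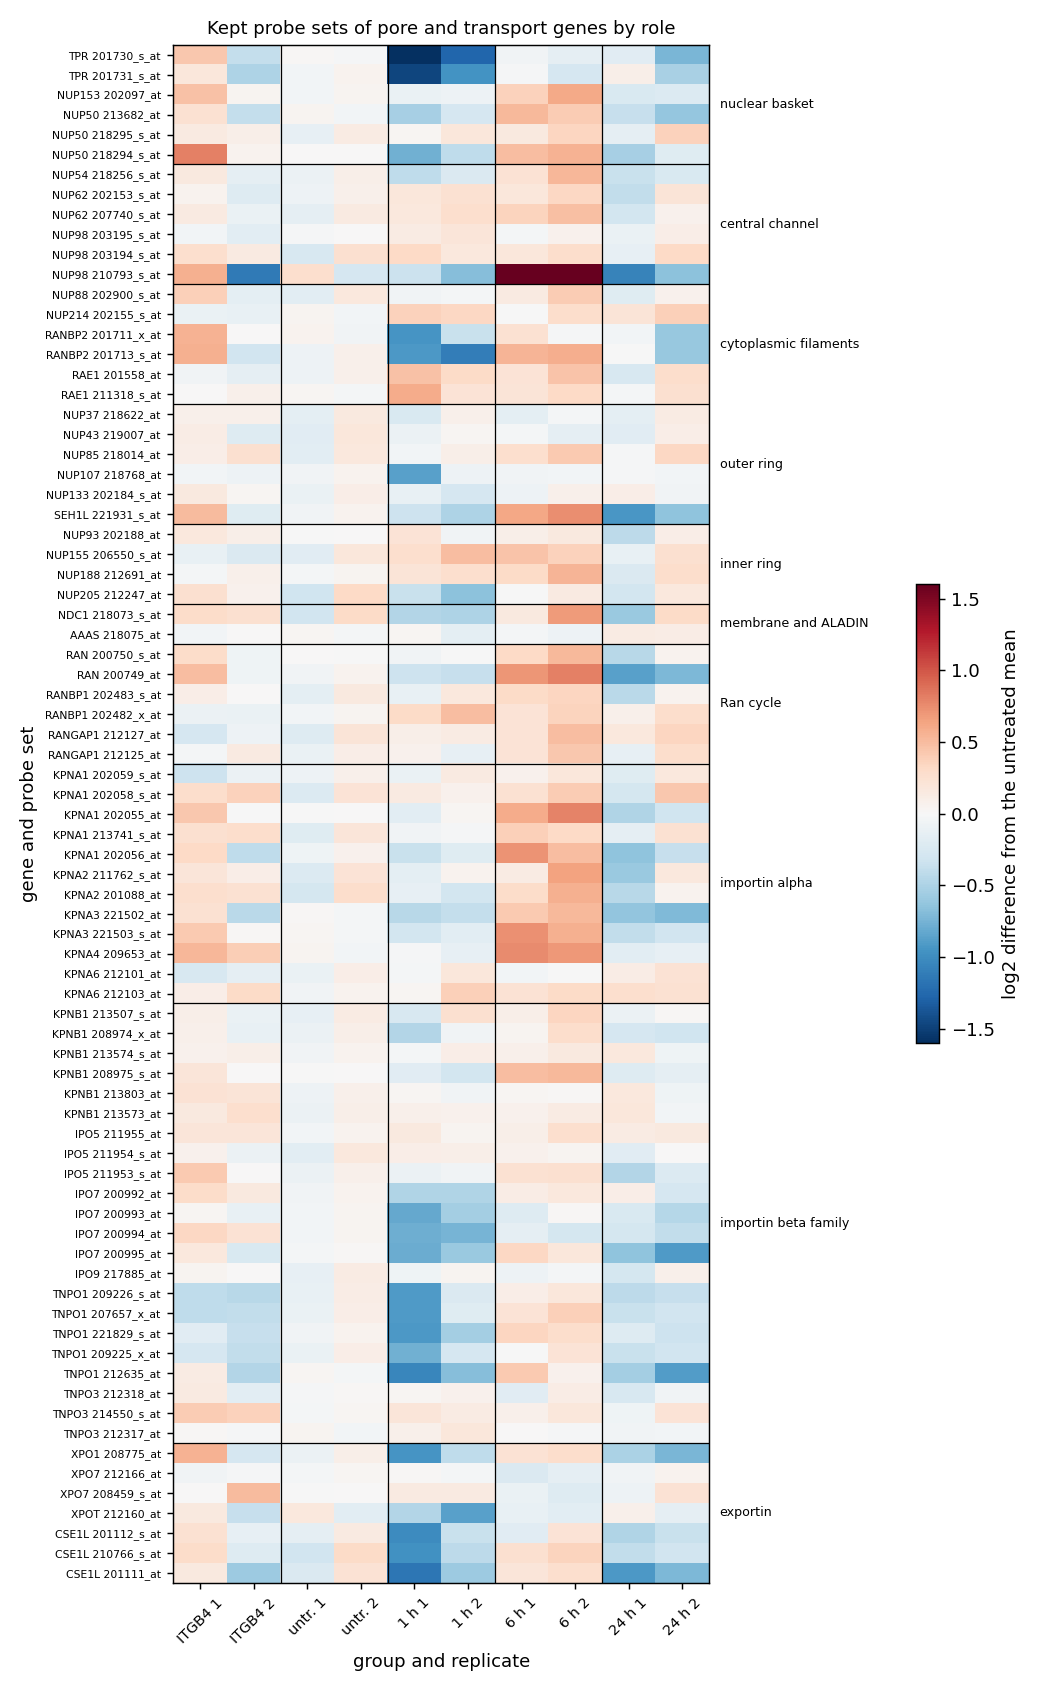
The 77 kept probe sets of pore and transport genes (rows, grouped by role) on each of the 10 arrays (columns), coloured by the log2 difference from the mean of the untreated arrays, with the colour scale limited to 1.6 either way. The darkest blue cells of the HGF 1 h columns are those of TPR, followed by CSE1L, RANBP2, TNPO1 and XPO1. The HGF 6 h columns are mostly red, darkest at NUP98 210793_s_at.

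Set directly against each other, the 6 h cells had more RNA than the 1 h cells for 17 of the 40 member genes, and less for none. Called higher were 8 of 22 pore genes (TPR, NUP153, NUP50, NUP54, NUP98, RANBP2, SEH1L and NDC1) and 9 of 18 transport genes (RAN, KPNA1, KPNA3, KPNA4, KPNB1, IPO7, TNPO1, XPO1 and CSE1L). The share of 42.5% stood beside 13.5% of all genes called higher, and 0 beside 8.15% called lower. By probe set 29 of 77 were called higher and 0 lower, beside 11.9% and 6.40%, and both 6 h arrays lay above both 1 h arrays in 49 and below them in 6, beside 32.5% and 33.9%. The median difference over the members was 0.31, beside -0.03 over all genes. This comparison uses the same 1 h and 6 h arrays as the comparisons with untreated cells, so it is no separate evidence for them.

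In the nuclear basket all 3 genes were called. TPR, with the arrays given above, was 1.45 higher at 6 h than at 1 h with 201730_s_at (SE 0.26, n = 2 each, adjusted p = 0.00724) and 1.07 higher with 201731_s_at (adjusted p = 0.0178). NUP50, which helps free importin alpha from its cargo at the basket, read 9.50 and 9.39 in 6 h cells, against 8.45 and 8.71 in 1 h cells, with 213682_at (difference 0.86, SE 0.19, adjusted p = 0.0136). A second probe set of NUP50, 218294_s_at, gave 1.11 (adjusted p = 0.00942), with a 1 h mean of 6.45, and 218295_s_at gave 0.14 and was not called. NUP153, which anchors the basket, read 8.80 and 9.04 in 6 h cells, against 8.33 and 8.35 in 1 h cells (difference 0.58, SE 0.15, adjusted p = 0.0253).

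Elsewhere in the pore, the called probe sets of RANBP2, NUP98 and SEH1L would not have been kept without the 6 h arrays. They had to be high there, so their p-values carry no weight. RANBP2 gave the widest difference after NUP98, with 201713_s_at at 7.44 and 7.47 in 6 h cells, against 5.98 and 5.79 in 1 h cells (difference 1.58, SE 0.26, adjusted p = 0.00510). With 210793_s_at NUP98 read 8.49 and 8.38 in 6 h cells, against 6.32 and 5.98 in 1 h cells (difference 2.29, SE 0.41, adjusted p = 0.00712), while its other probe sets gave -0.15 and -0.01. SEH1L read 7.65 and 7.78 in 6 h cells, against 6.70 and 6.53 in 1 h cells (difference 1.10, SE 0.20, adjusted p = 0.00724). It was the only called gene of 6 kept in the outer ring, and none of the 4 inner ring genes (NUP93, NUP155, NUP188 and NUP205) was called. NDC1, which spans the membrane, read 7.70 and 8.22 in 6 h cells, against 7.07 and 7.05 in 1 h cells (difference 0.90, SE 0.28, adjusted p = 0.0464), and NUP54, of the channel, differed by 0.70 (SE 0.15, adjusted p = 0.0129).

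Among the transport genes, RAN read 8.90 and 8.99 in 6 h cells, against 7.86 and 7.83 in 1 h cells, with 200749_at (difference 1.11, SE 0.17, adjusted p = 0.00407). The importin alpha genes KPNA1, KPNA3 and KPNA4 differed by 0.76 to 0.88 on their 5 called probe sets, and KPNB1 by 0.74 on 208975_s_at (SE 0.12, adjusted p = 0.00478). All 4 probe sets of IPO7 (0.55 to 0.95) and all 5 of TNPO1 (0.63 to 1.11) were called. For TNPO1, 221829_s_at read 11.01 and 10.95 in 6 h cells, against 9.75 and 10.12 in 1 h cells (difference 1.05, SE 0.14, adjusted p = 0.00312). Both exportins called stood clear of the 1 h arrays: XPO1 read 10.33 and 10.38 in 6 h cells, against 9.15 and 9.69 in 1 h cells (difference 0.93, SE 0.25, adjusted p = 0.0265). CSE1L read 9.77 and 9.85 in 6 h cells, against 8.42 and 8.99 in 1 h cells, with 201111_at (difference 1.10, SE 0.25, adjusted p = 0.0155).

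Members that did not pass included KPNA2 (0.64 on 201088_at, adjusted p = 0.0517), XPOT (0.53, adjusted p = 0.0837) and RANBP1 (0.31 and -0.12). Fewer members and a smaller share of all genes were called higher without the first 1 h array or without either 6 h array. With each array left out in turn, TPR (201730_s_at) gave 1.17 to 1.72, RAN (200749_at) 1.06 to 1.15 and KPNB1 (208975_s_at) 0.68 to 0.80. XPO1 then gave 0.66 to 1.21 and CSE1L (201111_at) 0.81 to 1.39. Probe sets of NUP50 (218294_s_at), RANBP2 (201713_s_at) and SEH1L were kept through the 6 h arrays and 1 ITGB4 array, and NUP98 210793_s_at through the 6 h arrays alone. They had to be high at 6 h, so their p-values carry no weight. With the filter taken over the 8 arrays other than HGF 6 h, an alternative chosen after seeing the data, 39 members were tested and 14 were called higher without NUP98, RANBP2 and SEH1L, beside 12.7% of all genes.

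**Figure D3:**
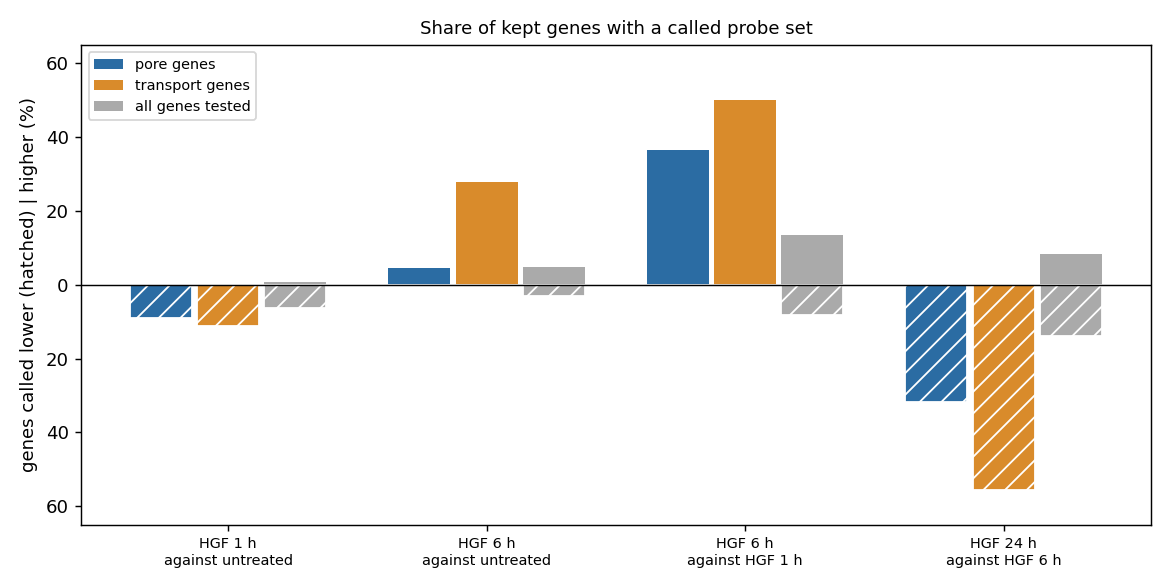
Share of kept genes with a called probe set (%, vertical axis) among 22 pore genes, 18 transport genes and all 6390 genes tested, in 4 comparisons. Plain bars above 0 are genes higher and hatched bars below 0 genes lower in the first-named group. At 6 h against 1 h, 36.4% of pore and 50% of transport genes were higher, beside 13.5% of all genes. A gene counts on any kept probe set, of which the pore genes had 30, the transport genes 47 and all genes 9098.

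The promoters of these genes were read from a RefSeq table (GRCh38.p14) that held the 250 bases before and 50 after the start of 39 of the 44 members, 15 of them called higher at 6 h than at 1 h. Searched on both strands were the E-box CACGTG, the NRF1 core GCATGCGC, CCAAT, the ETS motif CCGGAAG and the cyclic AMP response element TGACGTCA, none of which contains another. The E-box was present in 4 of the 15 promoters (26.7%), in 1 of the other 24 members (4.17%, NUP188) and in 7.43% of 27305 promoters. The 27305 were not limited to genes kept here. CCAAT was found in 33.3% of the 15, 45.8% of the 24 and 35.7% of all promoters, the ETS motif in 20%, 33.3% and 10.7%, the NRF1 core in 6.67%, 8.33% and 3.27%, and the cyclic AMP response element in 0%, 8.33% and 1.98%. The 4 of these 15 promoters with an E-box are printed, 5′ to 3′ on the strand of the gene, with the E-box in capitals. Their genes had been chosen as called higher at 6 h than at 1 h, as had the rest of the 15, which hold no E-box. The E-box began 174 bases before the start in NUP50, 102 in RAN, 66 in KPNA3 and 138 in IPO7. A match is a description of letters only.
NUP50 (chr22:45163675-45163974, plus strand): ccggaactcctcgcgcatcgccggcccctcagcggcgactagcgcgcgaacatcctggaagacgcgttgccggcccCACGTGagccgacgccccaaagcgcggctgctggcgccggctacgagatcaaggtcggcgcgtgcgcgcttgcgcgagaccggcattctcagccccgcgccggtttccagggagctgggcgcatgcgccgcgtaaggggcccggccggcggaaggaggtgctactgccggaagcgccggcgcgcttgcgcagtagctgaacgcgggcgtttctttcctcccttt
RAN (chr12:130871816-130872115, plus strand): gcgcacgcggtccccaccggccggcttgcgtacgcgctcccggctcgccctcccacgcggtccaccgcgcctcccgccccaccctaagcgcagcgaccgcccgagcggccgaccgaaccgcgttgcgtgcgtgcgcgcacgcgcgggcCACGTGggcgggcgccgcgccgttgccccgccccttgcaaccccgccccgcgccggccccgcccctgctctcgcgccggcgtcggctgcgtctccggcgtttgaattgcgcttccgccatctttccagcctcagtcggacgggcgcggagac
KPNA3 (chr13:49792633-49792932, minus strand): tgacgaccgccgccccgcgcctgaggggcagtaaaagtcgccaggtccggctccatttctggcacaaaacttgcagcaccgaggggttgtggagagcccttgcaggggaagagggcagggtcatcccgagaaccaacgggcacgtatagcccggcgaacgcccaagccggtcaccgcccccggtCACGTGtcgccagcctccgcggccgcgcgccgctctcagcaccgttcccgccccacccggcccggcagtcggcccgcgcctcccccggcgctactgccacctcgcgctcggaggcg
IPO7 (chr11:9384402-9384701, plus strand): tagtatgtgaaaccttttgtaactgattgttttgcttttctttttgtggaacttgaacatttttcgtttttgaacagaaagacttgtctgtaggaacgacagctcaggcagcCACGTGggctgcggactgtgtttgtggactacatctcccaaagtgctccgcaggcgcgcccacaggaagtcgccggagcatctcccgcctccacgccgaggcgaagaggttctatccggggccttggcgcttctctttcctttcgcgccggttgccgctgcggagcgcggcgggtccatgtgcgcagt

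At 24 h 17 of the 40 members had less RNA than at 6 h and none had more. They were 7 of 22 pore genes (NUP153, NUP50, NUP54, NUP62, NUP98, RANBP2 and SEH1L) and 10 of 18 transport genes (RAN, KPNA1, KPNA3, KPNA4, KPNB1, IPO5, IPO7, TNPO1, XPO1 and CSE1L). The share of 42.5% stood beside 14.0% of all genes called lower, and 0 beside 8.15% called higher. By probe set 23 of 77 were called lower and 0 higher, beside 12.5% and 6.95%, and both 24 h arrays lay below both 6 h arrays in 41 and above them in 5, beside 33.8% and 30.2%. The median difference over the members was -0.30, beside 0.00 over all genes. The 6 h arrays are shared with the comparison of 6 with 1 h, so the comparisons are not independent.

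RAN fell by 1.55 on the log2 scale with 200749_at, to 7.33 and 7.47 in 24 h cells, against 8.90 and 8.99 in 6 h cells (SE 0.17, n = 2 each, adjusted p = 0.000952). Its probe set 200750_s_at fell by 0.62 (adjusted p = 0.0312), at 11.07 and 11.57 in 24 h cells, against 11.84 and 12.04 in 6 h cells. Both probe sets of RAN thus passed here. NUP98 with 210793_s_at read 5.59 and 6.00 in 24 h cells, against 8.49 and 8.38 in 6 h cells (difference -2.64, SE 0.41, adjusted p = 0.00273). SEH1L read 6.10 and 6.39 in 24 h cells, against 7.65 and 7.78 in 6 h cells (difference -1.47, SE 0.20, adjusted p = 0.00175). For both, the 24 h level was so low that the size of the fall is inexact. Neither probe set would have been kept without the 6 h arrays, so both had to be high at 6 h and these p-values carry no weight.

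The importin alpha adaptors lay close together. KPNA3 read 8.48 and 8.41 in 24 h cells, against 9.54 and 9.63 in 6 h cells, with 221502_at (difference -1.14, SE 0.18, adjusted p = 0.00289). KPNA1 read 8.12 and 8.28 in 24 h cells, against 9.19 and 9.39 in 6 h cells, with 202055_at (difference -1.09, SE 0.16, adjusted p = 0.00208). KPNA4 read 8.02 and 8.06 in 24 h cells, against 8.95 and 8.88 in 6 h cells (difference -0.87, SE 0.12, adjusted p = 0.00154). On these 3 probe sets the arrays of the 2 times did not overlap. KPNA1 was called on 2 of 5 kept probe sets, and the 3 others gave -0.14 (202059_s_at), -0.25 (202058_s_at) and -0.30 (213741_s_at), with overlapping arrays in the first 2. KPNA2 gave -0.62 and -0.61 and did not pass (adjusted p = 0.0546 and 0.109).

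The importin beta family had 4 of 6 kept genes called. IPO7 was called on 200995_at, at 7.14 and 6.89 in 24 h cells, against 8.12 and 7.98 in 6 h cells (difference -1.03, SE 0.16, adjusted p = 0.00249), and on none of its other 3 probe sets. TNPO1 was called on 3 of 5 probe sets, the widest being -0.97 with 212635_at (SE 0.21, adjusted p = 0.0111). KPNB1 read 8.47 and 8.54 in 24 h cells, against 9.17 and 9.19 in 6 h cells, with 208975_s_at (difference -0.68, SE 0.12, adjusted p = 0.00419). It was called on that 1 of 6 kept probe sets, whose differences ran up to 0.03. The mean over the 6 was not called by limma (adjusted p = 0.166). IPO5, another importin of ribosomal proteins, gave -0.59 on 211953_s_at (adjusted p = 0.0221). Of the exportins, CSE1L read 8.66 and 8.86 in 24 h cells, against 9.77 and 9.85 in 6 h cells, with 201111_at (difference -1.05, SE 0.25, adjusted p = 0.0166). CSE1L was called on that 1 of 3 kept probe sets, which gave -1.05 to -0.43. XPO1 read 9.58 and 9.36 in 24 h cells, against 10.33 and 10.38 in 6 h cells (difference -0.88, SE 0.25, adjusted p = 0.0300).

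In the pore, NUP50 gave -0.95 (213682_at, adjusted p = 0.00735) and -0.88 (218294_s_at, adjusted p = 0.0187), NUP153 -0.72 (adjusted p = 0.00920) and NUP54 -0.68 (adjusted p = 0.0121). RANBP2 gave -0.87 on 201713_s_at (adjusted p = 0.0366), and NUP62, the channel partner of NUP54, gave -0.53 on 207740_s_at (adjusted p = 0.0389). TPR, which had been furthest down at 1 h, gave -0.35 and was not called (adjusted p = 0.381). The called probe sets of NUP98, RANBP2 and SEH1L, and 218294_s_at of NUP50, were again kept through the 6 h arrays. They had to be high there, so their p-values carry no weight. With the filter taken over the other 8 arrays 14 of 39 members were called lower, beside 13.1% of all genes. Fewer members and a smaller share of all genes were called lower without either 6 h array or without HGF 24 h replicate 1. With each array left out in turn, RAN (200749_at) gave -1.62 to -1.47 and KPNB1 (208975_s_at) -0.71 to -0.65. CSE1L (201111_at) then gave -1.15 to -0.95 and XPO1 -0.99 to -0.77.

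After 24 h with HGF no member differed from untreated cells by limma, nor did any of the 10176 probe sets (0% called in either direction). At an unadjusted p under 0.05 there were 15 of the 77 probe sets, of 11 members, 14 of them lower. Over all genes there were 1026 of the 9098 kept probe sets with a single gene symbol. CSE1L read 8.66 and 8.86 in 24 h cells, against 9.34 and 9.81 in untreated cells, with 201111_at (difference -0.82, adjusted p = 0.361). RAN read 7.33 and 7.47 in 24 h cells, against 8.13 and 8.25 in untreated cells, with 200749_at (difference -0.79, adjusted p = 0.346). SEH1L gave -0.79, IPO7 -0.77 with 200995_at and KPNA3 -0.67 with 221502_at. Both 24 h arrays lay below both untreated arrays in 29 of the 77 probe sets and above them in 6, beside 24.2% and 21.8% of all probe sets. Leaving out either of the ITGB4 arrays brought RAN past the threshold, together with a small share of all genes.

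In cells with ITGB4 no member was called against untreated cells, where 0.0469% of all genes (0.0491% of probe sets) were called higher and 0% lower. Both ITGB4 arrays lay above both untreated arrays in 13 of 77 probe sets and below them in 9, beside 17.0% and 17.7%. At an unadjusted p under 0.05 there were 4 members, each on 1 of the 77 probe sets. Over all genes there were 564 of the 9098 kept probe sets with a single gene symbol. KPNA4 read 8.73 and 8.58 in ITGB4 cells, against 8.23 and 8.15 in untreated cells (difference 0.46, SE 0.12, adjusted p = 0.313). TNPO3, which imports splicing factors, gave 0.39 with 214550_s_at, IPO7 0.28 with 200994_at and TNPO1 -0.43 with 209226_s_at. The ITGB4 replicates stood apart from each other on many members: TPR read 9.77 and 8.95, RANBP2 7.46 and 6.59 with 201713_s_at, and XPO1 10.65 and 9.82 on replicates 1 and 2. The median deviation of the 40 members from the untreated mean was 0.15 on ITGB4 replicate 1 and -0.09 on ITGB4 replicate 2.

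Array by array, the members' median deviation from the untreated mean was -0.08 and 0.08 in untreated cells, -0.10 and -0.04 at 1 h, 0.12 and 0.28 at 6 h and -0.20 and 0.06 at 24 h. Over all genes it stayed between -0.04 and 0.08. The 6 h arrays were thus the highest of the time course and the 24 h arrays the furthest apart from each other. The group mean was highest at 6 h in 26 of 40 members (65%), beside 31.3% of all genes, and lowest at 6 h in 4 (10%), beside 32%. Both 6 h arrays lay above the other 6 arrays of the time course in 11 members (NUP153, NUP50, NUP54, SEH1L, NUP188, RAN, RANBP1, KPNA3, KPNA4, IPO7 and XPO1), 27.5% beside 17.1% of all genes. Both 1 h arrays lay below the other 6 in 6 members, 15% beside 9.09%. These counts were chosen after the values were seen and carry no test, and SEH1L would not have been kept without its high 6 h arrays.

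The genes of the basket and RANBP2 of the filaments were followed over all 10 arrays. NUP153 read 8.91 and 8.48 in ITGB4 cells, 8.38 and 8.48 in untreated cells, 8.33 and 8.35 at 1 h, 8.80 and 9.04 at 6 h and 8.18 and 8.22 at 24 h. Its 1 h and 24 h arrays lay under the untreated ones and, of the time course, only the 6 h pair lay above them. For NUP50 the probe set 218294_s_at read 7.84 and 7.10 in ITGB4 cells, 7.04 and 7.04 in untreated cells, 6.27 and 6.64 at 1 h, 7.53 and 7.60 at 6 h and 6.51 and 6.85 at 24 h, following the course of 213682_at. Another probe set of NUP50, 218295_s_at, read 8.80 and 8.75 in ITGB4 cells, 8.52 and 8.79 in untreated cells, 8.69 and 8.83 at 1 h, 8.81 and 9.00 at 6 h and 8.51 and 9.02 at 24 h and was called in no comparison. RANBP2 with 201711_x_at read 8.70 and 8.14 in ITGB4 cells, 8.20 and 8.08 in untreated cells, 7.20 and 7.79 at 1 h, 8.39 and 8.13 at 6 h and 8.10 and 7.54 at 24 h, with the second 24 h array between the 1 h arrays, and was called in no comparison (0.77 at 6 h against 1 h, adjusted p = 0.0511).

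In the central channel, NUP54 read 8.73 and 8.44 in ITGB4 cells, 8.49 and 8.66 in untreated cells, 8.17 and 8.35 at 1 h, 8.80 and 9.10 at 6 h and 8.22 and 8.33 at 24 h, with the 6 h pair on top of the time course. NUP62 with 207740_s_at read 7.52 and 7.27 in ITGB4 cells, 7.24 and 7.53 in untreated cells, 7.55 and 7.65 at 1 h, 7.73 and 7.86 at 6 h and 7.08 and 7.45 at 24 h, and its other probe set 202153_s_at gave -0.35 at 24 h against 6 h and was not called (adjusted p = 0.206). NUP98 with 203195_s_at, by contrast, read 8.61 and 8.48 in ITGB4 cells, 8.64 and 8.66 in untreated cells, 8.78 and 8.85 at 1 h, 8.62 and 8.72 at 6 h and 8.55 and 8.75 at 24 h, with both 1 h arrays highest by a small margin and no call. With 203194_s_at NUP98 read 8.63 and 8.50 in ITGB4 cells, 8.11 and 8.62 in untreated cells, 8.69 and 8.53 at 1 h, 8.55 and 8.65 at 6 h and 8.23 and 8.69 at 24 h.

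Within the Ran cycle RANBP1 with 202483_s_at read 11.32 and 11.22 in ITGB4 cells, 11.06 and 11.37 in untreated cells, 11.09 and 11.38 at 1 h, 11.52 and 11.56 at 6 h and 10.78 and 11.27 at 24 h. Both 6 h arrays were the highest of the time course, and 24 h against 6 h gave -0.52 without a call (adjusted p = 0.0617). With 202482_x_at RANBP1 read 7.08 and 7.08 in ITGB4 cells, 7.14 and 7.22 in untreated cells, 7.48 and 7.68 at 1 h, 7.39 and 7.53 at 6 h and 7.26 and 7.46 at 24 h, where the 1 h arrays, not the 6 h arrays, were highest on average (0.40 over untreated cells, adjusted p = 0.0839). KPNA2 read 11.28 and 11.18 in ITGB4 cells, 10.86 and 11.30 in untreated cells, 10.92 and 11.13 at 1 h, 11.21 and 11.72 at 6 h and 10.48 and 11.24 at 24 h with 211762_s_at. With 201088_at KPNA2 read 10.12 and 10.10 in ITGB4 cells, 9.57 and 10.14 in untreated cells, 9.72 and 9.55 at 1 h, 10.14 and 10.42 at 6 h and 9.41 and 9.90 at 24 h, and in both probe sets the replicates at 24 h were further apart than those at 1 h. KPNA1 with 202056_at read 7.97 and 7.25 in ITGB4 cells, 7.59 and 7.73 in untreated cells, 7.31 and 7.46 at 1 h, 8.38 and 8.15 at 6 h and 7.02 and 7.29 at 24 h, and only there and in 202055_at did KPNA1 pass a test.

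Of the importin beta family, IPO7 read 11.06 and 10.93 in ITGB4 cells, 10.71 and 10.83 in untreated cells, 10.29 and 10.29 at 1 h, 10.89 and 10.94 at 6 h and 10.88 and 10.51 at 24 h with 200992_at. With 200993_at IPO7 read 10.54 and 10.39 in ITGB4 cells, 10.47 and 10.56 in untreated cells, 9.69 and 9.97 at 1 h, 10.31 and 10.53 at 6 h and 10.27 and 10.05 at 24 h. At 24 h both lay between the 1 h and the 6 h values, whereas the 24 h arrays of 200995_at overlapped its 1 h arrays. TNPO1 with 212635_at read 8.98 and 8.38 in ITGB4 cells, 8.88 and 8.82 in untreated cells, 7.81 and 8.18 at 1 h, 9.27 and 8.93 at 6 h and 8.30 and 7.96 at 24 h. IPO5 with 211953_s_at read 8.89 and 8.48 in ITGB4 cells, 8.39 and 8.56 in untreated cells, 8.38 and 8.42 at 1 h, 8.72 and 8.73 at 6 h and 8.00 and 8.26 at 24 h, and its other kept probe sets 211955_at and 211954_s_at gave -0.04 and -0.15 at 24 h against 6 h and were not called.

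Among the exportins, CSE1L with 201112_s_at read 11.56 and 11.19 in ITGB4 cells, 11.18 and 11.46 in untreated cells, 10.32 and 10.97 at 1 h, 11.14 and 11.53 at 6 h and 10.84 and 10.97 at 24 h. It passed no test (0.69 at 6 h against 1 h, adjusted p = 0.0501), while 210766_s_at of CSE1L, which read 10.53 and 10.04 in ITGB4 cells, 9.94 and 10.54 in untreated cells, 9.27 and 9.82 at 1 h, 10.50 and 10.59 at 6 h and 9.84 and 9.93 at 24 h, was called at 6 h against 1 h (1.0001, adjusted p = 0.0162). XPOT read 10.17 and 9.64 in ITGB4 cells, 10.18 and 9.85 in untreated cells, 9.55 and 9.15 at 1 h, 9.90 and 9.85 at 6 h and 10.09 and 9.87 at 24 h. Its 1 h arrays were the 2 lowest of the 10, and 24 h against untreated cells gave a difference of -0.04 (adjusted p = 0.952).

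Of the 40 kept members, 21 were called in none of the 6 comparisons, 13 of the pore and 8 of transport. Most of the scaffold was among them: NUP37, NUP43, NUP85, NUP107 and NUP133 of the outer ring and all 4 genes of the inner ring. So were NUP88, NUP214 and RAE1 of the cytoplasmic side and AAAS (ALADIN). On the transport side they were RANBP1, RANGAP1, KPNA2, KPNA6, IPO9, TNPO3, XPO7 and XPOT. Their differences lay between -0.67 (XPOT, 1 h against untreated) and 0.64 (KPNA2, 6 h against 1 h).

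The rings and the other uncalled members gave smaller differences. Among the outer ring genes NUP37 and NUP43 gave differences between -0.09 and 0.08 in all 6 comparisons, and NUP133 between -0.19 and 0.19. NUP107, whose complex builds the ring, read 8.81 and 9.59 in HGF 1 h cells, against 9.62 and 9.73 in untreated cells, so that 1 of the 1 h arrays stood low (difference -0.47, adjusted p = 0.167). In the inner ring NUP188 read 9.57 and 9.80 in HGF 6 h cells, against 9.22 and 9.30 in untreated cells (difference 0.43, adjusted p = 0.141), and NUP155 gave 0.42 (adjusted p = 0.156). NUP205 read 8.41 and 8.55 in HGF 6 h cells, against 8.06 and 7.76 in HGF 1 h cells (difference 0.57, adjusted p = 0.0850), and NUP93 stayed between -0.28 and 0.13. AAAS, KPNA6, IPO9, XPO7 and TNPO3 gave differences between -0.31 (XPO7) and 0.39 (TNPO3).

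**Figure D4:**
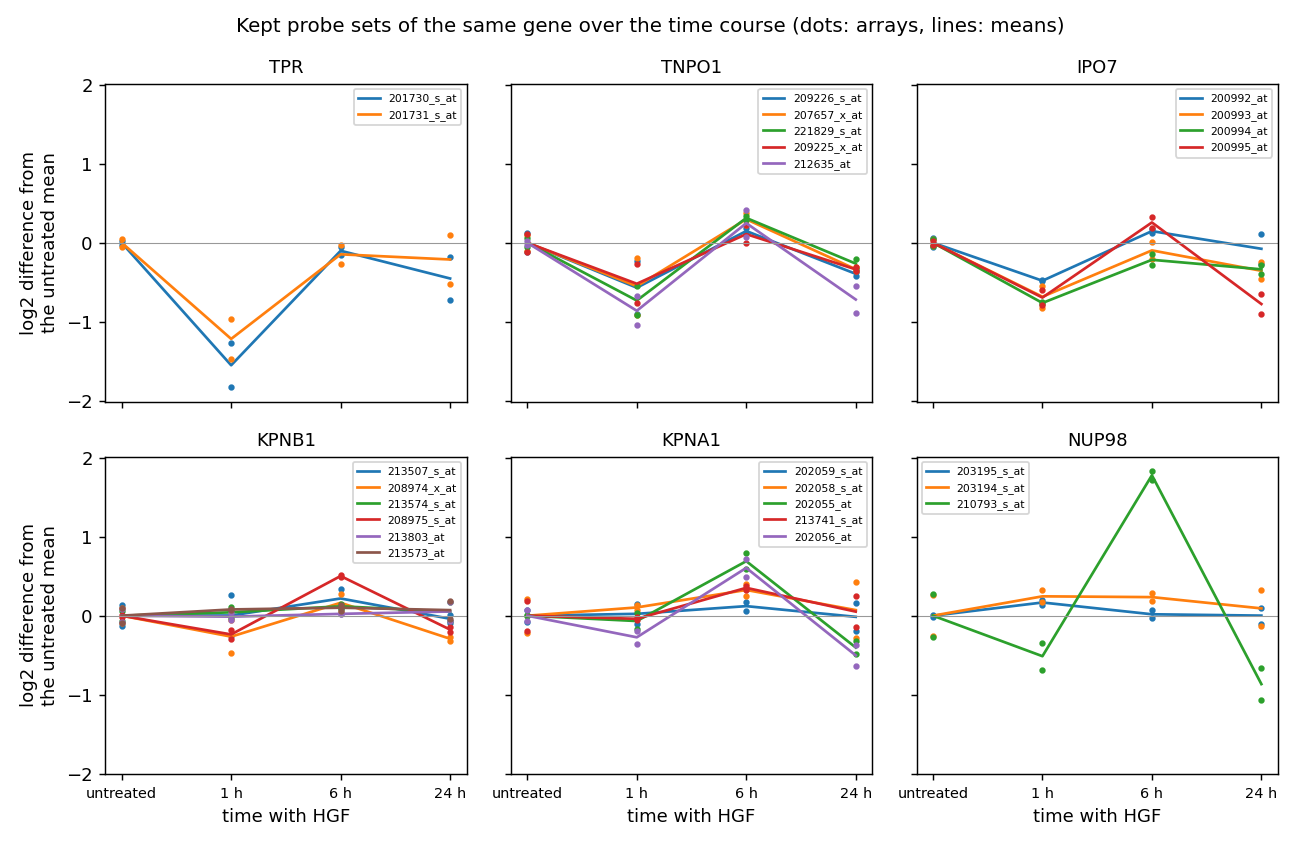
Departure from the mean of untreated cells (log2, vertical axis) over the time course for every kept probe set of 6 genes, with dots for arrays and lines for group means. The probe sets of TPR, TNPO1 and IPO7 run together at 1 h (IPO7 between -0.76 and -0.48), whereas at 6 h 1 probe set each of KPNB1 (0.50) and NUP98 (1.78) stands above the others of its gene.

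Probe sets of a gene did not always move alike, and 20 members had several kept. TPR, IPO7 and TNPO1 kept 1 direction on every kept probe set at 1 h. For KPNB1 the 5 other probe sets gave between 0.02 and 0.43 at 6 h against 1 h, where 208975_s_at gave 0.74, and the mean over the 6 probe sets, 0.25, was not called (adjusted p = 0.144). Which transcripts each probe set detects was not tested.

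Related genes outside the set were read from lists written from general knowledge. Of 16 factors of mRNA export, all kept, 4 were lower at 1 h than in untreated cells (NXT2, THOC1, THOC2 and THOC7, 25%, beside 6.45% of all genes). In the same comparison 1 was higher (THOC6, 6.2%, beside 0.814%). At 6 h 3 were higher than in untreated cells (DDX39A, SRRT and THOC6, 18.8%, beside 4.73%). DDX39A, an RNA helicase of the export complex, averaged 10.78 at 6 h, against 9.79 in untreated cells (difference 0.99, adjusted p = 0.0184). At 6 h 8 of the 16 were higher than at 1 h and none lower (50% higher, beside 13.5% of all genes), and at 24 h 5 were lower than at 6 h and none higher (31.2% lower, beside 14.0%). Of 15 kept genes of the nuclear lamina and envelope, 4 were higher at 6 h than at 1 h (LMNB1, TMPO, TOR1AIP1 and ZMPSTE24), among them TMPO, a lamina-associated protein, by 1.30 (adjusted p = 0.0107), and 6 were lower at 24 h than at 6 h (26.7% and 40%, beside 13.5% and 14.0% of all genes). Of 16 kept further pore and transport genes, 1 was called higher and 1 lower at 6 h than at 1 h (6.2% each way, beside 13.5% and 8.15% of all genes). RANBP10 was the lower one, by a difference of -0.57 (adjusted p = 0.0151). The higher one was RANBP6, a relative of IPO5, whose probe set was kept through the 6 h arrays alone, where it averaged 7.62, against 6.44 at 1 h. At 24 h against 6 h RANBP10 was higher by 0.44 (adjusted p = 0.0380) and XPO6, an exportin of actin, was lower on 2 probe sets (-0.77 and -0.66, adjusted p = 0.00704 and 0.00911), as was RANBP6, with the same limit. That made 6.2% of the 16 higher and 12.5% lower, beside 8.15% and 14.0% of all genes. No gene of these lists was called at 24 h or with ITGB4 against untreated cells.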

How the data were processed

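Each of the 10 arrays was summarised by the authors with RMA (the submitters' processing notes also name affy; versions are not given in the sources used here), and the deposited log2 values, already normalised between arrays, were used as they are. Precision is limited by 2 arrays a group. The authors' filter on presence calls is not part of these values. In its place probe sets at 7.3 or more on at least 2 arrays were kept, and 68 control probe sets were removed. Group means were fitted over the 10 arrays together in R 4.3.3 with limma 3.58.1 (5 residual and 5.94 prior degrees of freedom), and p-values were adjusted by Benjamini-Hochberg over the 10176 kept probe sets in each of 6 comparisons, with a threshold of 0.05. A gene counted as called when any kept probe set was. The program was tested on simulated data. Symbols came from the platform annotation (19065 probe sets with 1 symbol, 1043 with several, 2107 with none). Probe sets with several symbols, among them 1 for POM121 and 1 for NUP62, were not named. All called members were named, and array values given for up to 12 with the largest differences and for TPR, NUP153, NUP98, RANBP2, NUP50, RAN, RANBP1, KPNA2, KPNB1, CSE1L, XPO1 and XPOT. The alternatives were median centring, cyclic loess, a minimum of 8 or no minimum, gene means, a replicate block, the spread of 2 groups and a trended robust prior. Separately, each array was left out in turn. A filter over the 8 arrays other than HGF 6 h was a further alternative, chosen after seeing the data. Members, lists and the filter were chosen with earlier results of these data known. The Illumina arrays of the same RNA were not analysed here.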

Additional observations from a re-analysis of the deposited data

Results flagged for a closer look

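Between 1 and 6 h with HGF, and between 6 and 24 h, the RNA level of part of these genes differed by a direct test of the 2 times. By limma with Benjamini-Hochberg adjustment 17 of the 40 members (42.5%) were higher at 6 h than at 1 h, beside 13.5% of all genes. At 24 h 17 (42.5%) were lower than at 6 h, beside 14.0%. A single untreated group stands beside all times, so time in culture and time with HGF cannot be told apart.

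At 6 h against 1 h, probe sets that had also been called against untreated cells differed as follows. TPR gave 1.45 (adjusted p = 0.00724), RANBP2 1.58 (0.00510), IPO7 0.55 with 200994_at (0.0121) and TNPO1 1.11 with 212635_at (0.00858). NUP98 gave 2.29 with 210793_s_at (0.00712), RAN 1.11 (0.00407), KPNA1 0.76 with 202055_at (0.0111), KPNA3 0.88 (0.00523), KPNA4 0.80 (0.00364) and KPNB1 0.74 (0.00478). The NUP98 probe set was kept through the 6 h arrays alone and that of RANBP2 through these and 1 ITGB4 array. Both had to be high at 6 h, so their adjusted p-values carry no weight. With the filter over the other 8 arrays both counts were 14 of 39, beside 12.7% and 13.1% of all genes.

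At 24 h against 6 h, with the same 6 h arrays, RAN gave -1.55 (adjusted p = 0.000952), KPNA1 -1.09 (0.00208), KPNA3 -1.004 (0.00208), KPNA4 -0.87 (0.00154) and KPNB1 -0.68 (0.00419). NUP98 gave -2.64, again on the probe set kept through the 6 h arrays alone, so that its adjusted p carries no weight. With 2 arrays a group no single array could be tested as an outlier.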

How the results depend on the processing

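Leaving out each array in turn gave counts of member genes called of 0 to 9 lower at 1 h against untreated cells, 0 to 8 higher at 6 h and 0 to 1 lower at 24 h. It gave 6 to 18 higher at 6 h against 1 h and 9 to 20 lower at 24 h against 6 h. A group left with 1 array is assumed to vary like the others, and the share of all genes called also changed from fit to fit. At 6 h against untreated cells the count was 3 when a gene's kept probe sets were averaged, beside 4.96% of all genes. With the spread of the 2 compared groups alone it was 11, beside 12.5%, against 6 beside 4.73% in the main fit. Called members kept direction wherever their probe set was kept. Under the other settings 368 of 377 values stayed past the threshold and the rest lost the call. A probe set dropped by the filter of a setting is not among the 377. Those of RANBP2 and SEH1L had values in 7 of these 9 settings and that of NUP98 in 8. With an array left out a larger part of the values lost the call, and NUP98 had values in 8 of these 10 fits. Median centring moved the share of higher calls among all called probe sets to 54.8% at 6 h against 1 h (65% as deposited) and to 46.6% at 24 h against 6 h (35.7% as deposited).

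Directions that reversed belonged to probe sets that were not called. NUP98 203195_s_at at 6 h against untreated cells gave -0.0131 with median centring and with cyclic loess and lay between -0.0341 and 0.0711 with an array left out. At 6 h against 1 h NUP98 gave 0.710 as a gene mean. At 24 h against 6 h NUP98 203195_s_at gave 0.0434 with median centring, 0.0223 with cyclic loess and -0.1193 to 0.0852 with an array left out. KPNA1 202059_s_at then gave -0.0278 to 0.2226 at 6 h against 1 h and -0.3138 to 0.0429 at 24 h against 6 h, and KPNB1 213507_s_at gave -0.0413 to 0.4717 at 6 h against 1 h. IPO5 211955_at gave 0.0221 with median centring, 0.0172 with cyclic loess and -0.1305 to 0.0538 with an array left out, at 24 h against 6 h. The cause was not tested.

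The labels do not say that replicate numbers mark a shared day or batch. Deviations of same-numbered arrays correlated by 0.122 to 0.461 in 8 of 10 pairs of groups and by -0.14 and -0.107 in the other 2, both with HGF 1 h, so the numbers were not taken to pair the arrays. With the replicate number as a block 5 members were lower at 1 h than in untreated cells, beside 8.06% of all genes. At 6 h 6 were higher than in untreated cells, beside 6.28%. Against 1 h 19 were higher at 6 h, beside 15.6%, and against 6 h 19 were lower at 24 h, beside 15.8%. XPOT was added at 1 h, KPNA2 and XPOT at 6 h against 1 h, and KPNA2 and RANBP1 at 24 h against 6 h, and no call was lost. Signal near background limits the sizes given for RANBP2, NUP98, SEH1L and NDC1.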
